A study of Mus musculus with 12 samples.

Results

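The Toll-like receptors and their companions Cd14 and Cd180 were followed in mouse dendritic cells stimulated through TLR2. Membership was set by gene symbol, with earlier results of these data known. The group holds Tlr1, Tlr2, Tlr3, Tlr4, Tlr6, Tlr7, Tlr9, Tlr13, Cd14 and Cd180, which are 10 of the 18194 genes with a single-symbol probe set on the array and 16 of its 34958 single-symbol probe sets. Messenger RNA was measured on 12 Affymetrix 3' expression arrays of dendritic cells taken from lymph nodes of C57BL/6 mice and kept in culture. By label the cells were wild-type (WT) or lacked p38a (KO), and each genotype was sampled before and 2 and 4 h after stimulation, which makes 6 groups. At 2 and 4 h the medium held Pam3CSK4, a synthetic triacylated lipopeptide, at 1 mg/ml as labelled, a unit that was not checked here. Each group had 2 arrays, lettered A and B. The labels do not say whether these were separate animals or cultures, so p-values measure the spread between these arrays, which may be technical. The labels name no Cre line, deleted exon or age, and no culture without ligand was arrayed at 2 or 4 h, so an effect of the ligand and one of time in culture cannot be told apart.

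Toll-like receptors are membrane proteins that recognise conserved microbial molecules and signal through adaptors such as MyD88. TLR2 pairs with TLR1 to bind triacylated lipopeptides such as Pam3CSK4 and with TLR6 to bind diacylated ones, and CD14 is a lipid-anchored or soluble protein that hands lipopolysaccharide and lipopeptides to them. TLR4 senses lipopolysaccharide with its partner MD-2, encoded by Ly96, while CD180 is a related surface protein that lacks a signalling domain and pairs with MD-1, encoded by Ly86. TLR3, TLR7, TLR9 and TLR13 sit in endosomes, where they detect double-stranded RNA, single-stranded RNA, unmethylated DNA and bacterial ribosomal RNA. Dendritic cells use these receptors to decide when to mature and prime T cells.

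The promoters of Tlr2 and Tlr1 are shown because these genes encode the receptor pair for Pam3CSK4 itself. The windows run from 250 bases before to 50 bases after the start site in RefSeq on the GRCm38.p6 assembly, both on the minus strand, and were read 5′ to 3′. Capitals mark matches to the NF-kB consensus (10 bases beginning GGG and ending CC) in Tlr2 and to the PU.1 motif GAGGAAGT in Tlr1.
Tlr2, chr3:83841559-83841858: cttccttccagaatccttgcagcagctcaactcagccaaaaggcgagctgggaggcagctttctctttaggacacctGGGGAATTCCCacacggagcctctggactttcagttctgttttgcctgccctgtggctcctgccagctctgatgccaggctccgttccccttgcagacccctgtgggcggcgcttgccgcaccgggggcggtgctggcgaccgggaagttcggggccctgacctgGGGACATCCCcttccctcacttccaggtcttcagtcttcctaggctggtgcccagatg
Tlr1, chr5:64933509-64933808: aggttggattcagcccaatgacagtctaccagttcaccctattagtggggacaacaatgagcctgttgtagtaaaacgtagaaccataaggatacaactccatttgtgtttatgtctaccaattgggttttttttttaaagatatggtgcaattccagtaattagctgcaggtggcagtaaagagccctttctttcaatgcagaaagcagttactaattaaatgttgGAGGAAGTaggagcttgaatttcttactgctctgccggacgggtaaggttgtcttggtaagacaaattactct

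The Tlr2 window held NF-kB consensus matches at bases 78 to 88, where matches on both strands overlap, and at bases 243 to 252. Of 32851 RefSeq windows of this length, 4.51% held such a match on either strand, and among the members searched the Tlr3 window held one too. The PU.1 motif stood at bases 228 to 235 of the Tlr1 window shown and was present in 3.2% of all windows. Tlr1 had 2 windows, and only the one with this match is shown. The other held none of the motifs searched, and neither held an NF-kB match. The PU.1 motif was also found near the Tlr9 start site. In total 7 members had 10 windows, Cd14 was not searched, and Tlr4 and Tlr7 had no window in the table. The remaining motifs were searched on both strands in the same windows. AP-1 (TGANTCA) was found for Tlr9 and in 7.81% of all windows, and C/EBP (TTGCNNAA) for Tlr3, Tlr6 and Tlr13 and in 10.8%. The interferon-stimulated response element was found for Tlr6, where 2 matches overlap, and in 3.44% of all windows. The cyclic AMP response element (TGACGTCA) was in none of the 10 windows and in 1.79% of all. A match describes letters only and shows no binding. On the same assembly Tlr1 (chr5:64924680-64933600) and Tlr6 (chr5:64953092-64970942) lie close together, and Tlr2 is at chr3:83836272-83841824. Tlr4 is at chr4:66827551-66846581 and Cd180 at chr13:102693547-102706631. Of the endosomal receptors, Tlr3 is at chr8:45395665-45411075, Tlr9 at chr9:106222598-106226876, and Tlr7 (chrX:167303380-167330574) and Tlr13 (chrX:106143275-106160493) are on the X chromosome.

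The deposited signals of the 12 arrays had trimmed means from 66.6 to 119, a 1.79-fold range, and were quantile-normalized before testing. Values below are log2(normalized signal + 16) unless called a signal, and fold changes are on that scale, which understates changes of dim genes. Arrays of one group correlated at 0.987 to 0.990 over the tested genes, and the median SD within groups was 0.145. The highest correlation of each array with an array of another group was nearly as high, at 0.984 to 0.989. All 10 members passed the filter on low signal (4.73), Tlr9 with the smallest margin at a mean of 4.90. All 15 dendritic cell markers passed it too, with Xcr1, a marker of cross-presenting dendritic cells, lowest at 4.75. Mapk14, which encodes p38α and is the gene named in the knockout label, was not lower in the KO arrays. Averaged over the times it was 0.31 ± 0.076 (SE) higher in KO (adjusted p = 0.014), and leaving out WT 2 h array B ended this call (adjusted p = 0.052). Where its probe set lies relative to the deleted part is not given in the sources used here, so KO below means the arrays labelled KO.

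Cd14, Tlr2 and Tlr1 rose after Pam3CSK4 in both genotypes, Cd14 and Tlr2 by more than Tlr1, and Tlr13, a receptor of the endosome, fell. Tlr6 was called in WT at 2 h alone. In WT at 2 h, 4 of the 10 members were higher and 1 was lower, where 19.9% of the 12792 genes tested were called, 8.43% higher and 11.5% lower. In KO at 2 h, 3 were higher and 1 lower, against 7.85% and 11.7% of all genes (19.6% in either direction). At 4 h against 0 h, 3 were higher and 1 lower in WT, against 8.31% and 9.90% (18.2%), and likewise in KO, against 7.24% and 10.9% (18.1%). Groups whose arrays do not overlap are common with 2 arrays each. They were found for 6 members in WT at 2 h and 8 at 4 h, where 56.7% and 56.3% of all genes did not overlap, and for 6 and 9 in KO, where 56.9% and 56.4% did not. The median change of the 10 members at 2 h was 0.17 in WT and 0.064 in KO, beside −0.049 and −0.058 over all genes tested. On the deposited scale, with no normalization between arrays, the counts of called members were 3 (WT) and 3 (KO) at 2 h and 2 (WT) and 0 (KO) at 4 h. Of the 12787 genes tested on that scale, 2291, 3413, 832 and 853 were called, in the same order. The 3 in KO at 2 h were Cd14, Tlr13 and Cd180, so that Tlr2 and Tlr1 were no longer called there and Cd180 was.

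**Figure D1:**
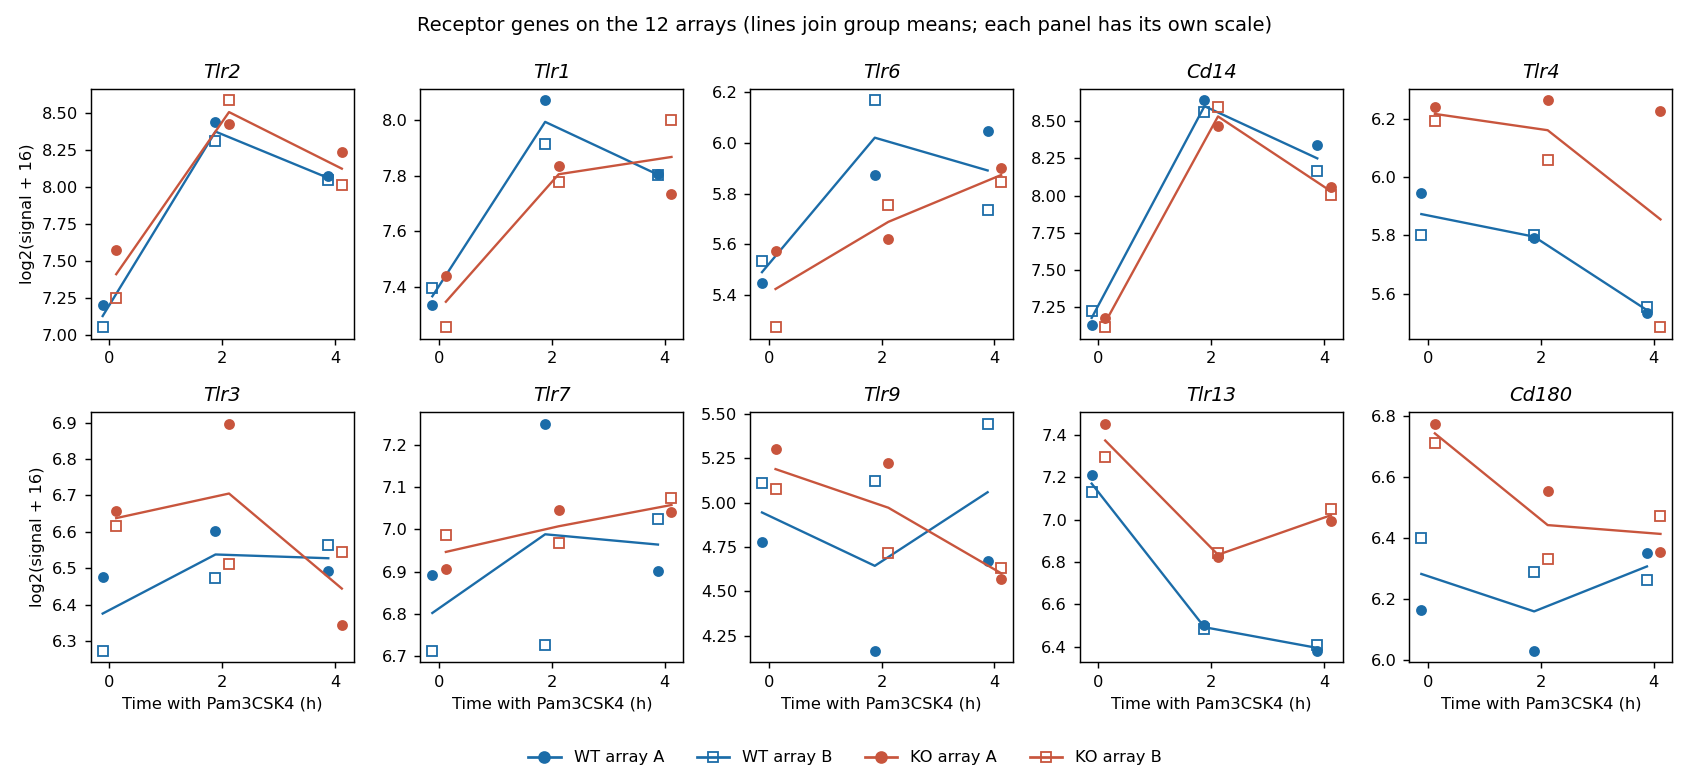
Values of the 10 receptor genes on the 12 arrays as log2(signal + 16), against time with Pam3CSK4 in hours, with WT in blue and KO in red, array A as filled circles, array B as open squares and lines through the group means. Each panel has its own scale. Cd14 and Tlr2 at 2 h lie above both 0 h arrays of their genotype, and Tlr13 lies below them.

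Cd14, the ligand-transfer protein, showed the largest rise among the members. Its signals in WT at 0 h were 124 and 134, at 2 h they were 383 and 362, and at 4 h 308 and 271. The KO signals were 129 and 123 before stimulation, 338 and 371 after 2 h, and 250 and 241 after 4 h. In both genotypes the highest arrays were those at 2 h, the 4 h arrays lay between the other times, and no times overlapped. Cd14 thus rose by 1.42 ± 0.098 (log2 difference, SE) in WT at 2 h, a 2.68-fold change (adjusted p = 2.8e-08), and by 1.38 ± 0.098 or 2.61-fold in KO (adjusted p = 4.9e-08). At 4 h it stood 1.07 above 0 h in WT (adjusted p = 9.8e-07) and 0.88 above in KO (adjusted p = 1.0e-05). Between 2 and 4 h it fell by 0.35 in WT (adjusted p = 0.031) and by 0.50 in KO (adjusted p = 0.0030). From 2 to 4 h 1 of 10 members was called in WT, where 11.1% of all genes were (5.75% lower), and 2 of 10 in KO, where 13.7% were (7.25% lower). Groups did not overlap for 5 members in each genotype, beside 52.9% of all genes in WT and 54.6% in KO. On the deposited scale Cd14 stayed called at 2 h in both genotypes and at 4 h in WT, whereas the KO change at 4 h was 0.68 (adjusted p = 0.10) and neither fall was called. The WT fall was also lost when WT 2 h array A, WT 2 h array B or WT 4 h array B was left out (adjusted p up to 0.25).

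Tlr2, the receptor subunit common to both lipopeptide-binding pairs, had the next largest rise. The WT signals were 131 and 117 before stimulation, 331 and 302 after 2 h, and 254 and 248 after 4 h. The KO signals were 174 and 136, then 328 and 369, then 285 and 242. Every stimulated array lay above both 0 h arrays of its genotype. The rise at 2 h was 1.25 ± 0.12 or 2.38-fold in WT (adjusted p = 1.6e-06) and 1.10 ± 0.12 or 2.14-fold in KO (adjusted p = 7.7e-06). At 4 h Tlr2 was still 0.93 above 0 h in WT (adjusted p = 3.9e-05) and 0.71 above in KO (adjusted p = 5.2e-04). From 2 to 4 h it fell by 0.38 in KO (adjusted p = 0.047). That call was lost without any one of KO 2 h A, KO 2 h B, KO 4 h B and the 4 WT arrays at 2 and 4 h (adjusted p up to 0.31). In WT the same change was −0.31 and was not called (adjusted p = 0.12). The WT rise at 2 h stayed called on the deposited scale, at 0.87 (adjusted p = 0.011). The other Tlr2 calls were lost there, with 0.60 in KO at 2 h (adjusted p = 0.073), 0.76 in WT at 4 h (adjusted p = 0.055), 0.51 in KO at 4 h (adjusted p = 0.26) and −0.085 in KO from 2 to 4 h (adjusted p = 0.89).

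Tlr1, the partner of TLR2 for triacylated lipopeptides, rose by less. The WT signals were 146 and 153 before stimulation, 253 and 225 after 2 h, and 208 and 207 after 4 h. The KO signals were 158 and 137, then 212 and 203, then 197 and 240. The stimulated arrays lay above the 0 h arrays in both genotypes, and the 2 and 4 h arrays of KO overlapped. The 2 h rise was 0.63 ± 0.11 or 1.54-fold in WT (adjusted p = 7.9e-04). In KO it was 0.46 ± 0.11 or 1.37-fold (adjusted p = 0.0091), but −0.030 on the deposited scale, where the median of all genes moved by −0.41. At 4 h the rise was 0.44 in WT (adjusted p = 0.012) and 0.52 in KO (adjusted p = 0.0037). None of the 4 Tlr1 calls was kept on the deposited scale, with 0.25 in WT at 2 h (adjusted p = 0.49), 0.27 in WT at 4 h (adjusted p = 0.65) and 0.31 in KO at 4 h (adjusted p = 0.55). The KO call at 2 h was lost without KO 0 h B or KO 2 h A (adjusted p up to 0.087), and the KO call at 4 h without KO 0 h B or KO 4 h B (up to 0.069). The WT call at 4 h was lost without WT 0 h A, WT 4 h A or WT 4 h B (up to 0.075).

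Tlr6, which pairs with TLR2 for diacylated lipopeptides, varied more between arrays of a group. In WT it read 5.45 and 5.53 before stimulation, 5.87 and 6.17 after 2 h, and 6.05 and 5.74 after 4 h. In KO it read 5.57 and 5.27 before stimulation, 5.62 and 5.76 after 2 h, and 5.90 and 5.85 after 4 h. The arrays at 2 and 4 h were above those at 0 h in both genotypes, and in WT the 2 and 4 h arrays overlapped. The WT rise at 2 h of 0.53 ± 0.18 passed the test by a narrow margin (adjusted p = 0.049). Of 11 other settings 4 kept this call. On the deposited scale, with trimmed-mean scaling, with a pseudocount of 1 and without a filter it was lost. The call also ended with another probe set rule, with only the groups compared and with the replicate block. It was lost in 8 of the 12 fits that left out 1 array, those without WT 0 h A, WT 0 h B, WT 2 h B, WT 4 h A or any KO array at 2 or 4 h (adjusted p up to 0.30). The other changes of Tlr6 against 0 h were not called, at 0.40 in WT at 4 h (adjusted p = 0.15), 0.27 in KO at 2 h (adjusted p = 0.35) and 0.45 in KO at 4 h (adjusted p = 0.10).

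**Figure D2:**
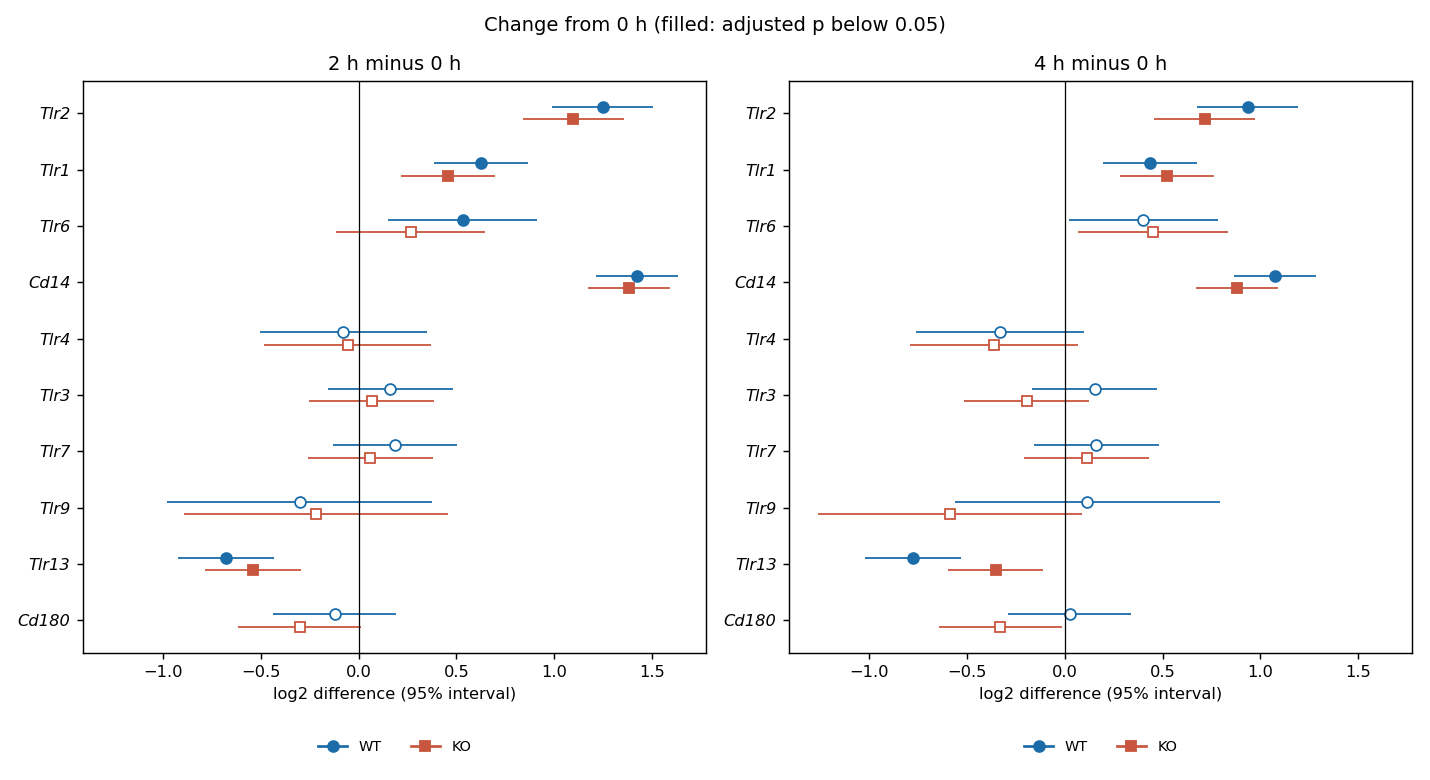
Change from 0 h of each receptor gene as a log2 difference with its 95% interval, at 2 h (left) and 4 h (right), with WT as circles and KO as squares and filled points called at an adjusted p below 0.05. Cd14, Tlr2 and Tlr1 lie to the right of 0 and Tlr13 to the left in both genotypes at both times.

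Tlr4, the lipopolysaccharide receptor, was read by 4 probe sets, of which 2 passed the filter and 1 gave a call. The brighter one read 5.94 and 5.80 in WT before stimulation, 5.79 and 5.80 after 2 h, and 5.53 and 5.55 after 4 h. In KO it read 6.24 and 6.19 before stimulation, 6.27 and 6.06 after 2 h, and 6.23 and 5.48 after 4 h. The WT arrays at 4 h were below those at 0 h, and the KO arrays at 4 h lay far apart from each other. No change of this probe set against 0 h was called, the largest being −0.36 ± 0.20 in KO at 4 h (adjusted p = 0.25), which turned to 0.0084 without KO 4 h array B and was called at −0.73 without KO 4 h array A (adjusted p = 0.019). The dimmer probe set read 5.77 and 5.65 in WT before stimulation, 4.90 and 5.18 after 2 h, and 5.19 and 5.04 after 4 h. It fell by 0.67 ± 0.19 in WT at 2 h (adjusted p = 0.033 over 27061 probe sets). Its change in WT at 4 h was −0.59 (adjusted p = 0.063). In KO it changed by −0.45 at 2 h (adjusted p = 0.15) and −0.49 at 4 h (adjusted p = 0.13).

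Cd180, the relative of TLR4 that pairs with MD-1, was not called in any comparison between times. In WT it read 6.16 and 6.40 before stimulation, 6.03 and 6.29 after 2 h, and 6.35 and 6.26 after 4 h. In KO it read 6.78 and 6.71 before stimulation, 6.55 and 6.33 after 2 h, and 6.35 and 6.47 after 4 h. The WT times overlapped, whereas both stimulated KO groups lay below the 0 h group. Its KO changes were −0.30 at 2 h (adjusted p = 0.18) and −0.33 at 4 h (adjusted p = 0.15). On the deposited scale the KO change at 2 h was −0.72 and was called (adjusted p = 0.023).

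Among the endosomal receptors, Tlr13, the sensor of bacterial ribosomal RNA, fell. The WT signals were 132 and 124 before stimulation, 74.6 and 73.3 after 2 h, and 67.3 and 68.8 after 4 h. The KO signals were 159 and 141, then 97.4 and 98.8, then 111 and 116. All stimulated arrays lay below the 0 h arrays of their genotype, and the stimulated KO arrays lay above the stimulated WT arrays. The fall in WT was −0.68 ± 0.11 at 2 h (1.60-fold, adjusted p = 4.5e-04) and −0.78 ± 0.11 at 4 h (1.71-fold, adjusted p = 1.4e-04). In KO it was −0.54 at 2 h (adjusted p = 0.0032) and −0.35 at 4 h (adjusted p = 0.043). The KO call at 4 h was kept in the fits without KO 2 h A or KO 2 h B and lost in the other 10 that left out 1 array (adjusted p up to 0.25). It was also lost without normalization between arrays (adjusted p = 0.19). The other calls of Tlr13 against 0 h were kept in every alternative run. Macrophage and monocyte markers also had a negative median change at 4 h, −0.36 in WT and −0.38 in KO. Of 11 tested, 6 were lower and 2 higher in WT, and 7 and 2 in KO. Of all genes, 9.90% (WT) and 10.9% (KO) were lower, and 8.31% and 7.24% higher. The part of these cells in the Tlr13 fall was not tested.

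Tlr3, Tlr7 and Tlr9 were not called in any comparison. Tlr3, the receptor for double-stranded RNA, ranged from 6.27 to 6.60 in WT and from 6.34 to 6.90 in KO, and its changes against 0 h ran from −0.19 to 0.16. Tlr7, the receptor for single-stranded RNA, ranged from 6.71 to 7.25 in WT and from 6.91 to 7.07 in KO, with changes against 0 h from 0.061 to 0.19. For both genes the arrays of WT at 0 and 2 h overlapped, and the 95% intervals of the changes allow at most 0.48 (Tlr3) and 0.51 (Tlr7) in WT at 2 h. The second Tlr3 probe set and the other 2 of Tlr7 also gave no call against 0 h. Tlr9, the receptor for unmethylated DNA, ranged from 4.17 to 5.45 in WT and from 4.57 to 5.30 in KO. The WT arrays at 2 h read 4.17 and 5.12 and those at 4 h 4.67 and 5.45, so Tlr9 spread widely within groups, close to the filter. Its KO change at 4 h was −0.59 ± 0.32 (adjusted p = 0.24). From 2 to 4 h the changes of members that were not called ran from −0.31 (Tlr2) to 0.42 (Tlr9) in WT and from −0.37 (Tlr9) to 0.19 (Tlr13) in KO.

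Genotype differences were fewer. At 0 h none of the 10 members was called between KO and WT by limma, where 3.30% of all genes were, and 2 had an unadjusted p under 0.05. These were Cd180 and Tlr2, with Tlr2 0.28 ± 0.12 higher in KO (limma, unadjusted p = 0.033, adjusted p = 0.28). At 2 h none was called against 2.30% of all genes, with 1 under an unadjusted p of 0.05. At 4 h 1 of 10 was called, higher in KO, against 2.39% of all genes (1.13% higher). Cd14 differed by −0.22 ± 0.098 at 4 h and was not called (limma, unadjusted p = 0.040, adjusted p = 0.33). Averaged over the times 2 of 10 were called, both higher in KO, against 10.5% (6.21% higher). These members were Tlr13 and Cd180. The lipopeptide receptors were not called. Averaged over the times Tlr2 was 0.16 higher in KO (95% interval 0.011 to 0.31, adjusted p = 0.18), Cd14 differed by −0.11 (−0.23 to 0.014), Tlr1 by −0.048 (−0.19 to 0.090) and Tlr6 by −0.14 (−0.36 to 0.082). Among the endosomal receptors Tlr3 differed by 0.12 (−0.069 to 0.30), Tlr7 by 0.086 (−0.099 to 0.27) and Tlr9 by 0.038 (−0.35 to 0.43), and none of these was called. The intervals of Tlr2 and Cd14 do not reach the size of the Pam3CSK4 rise in either gene.

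**Figure D3:**
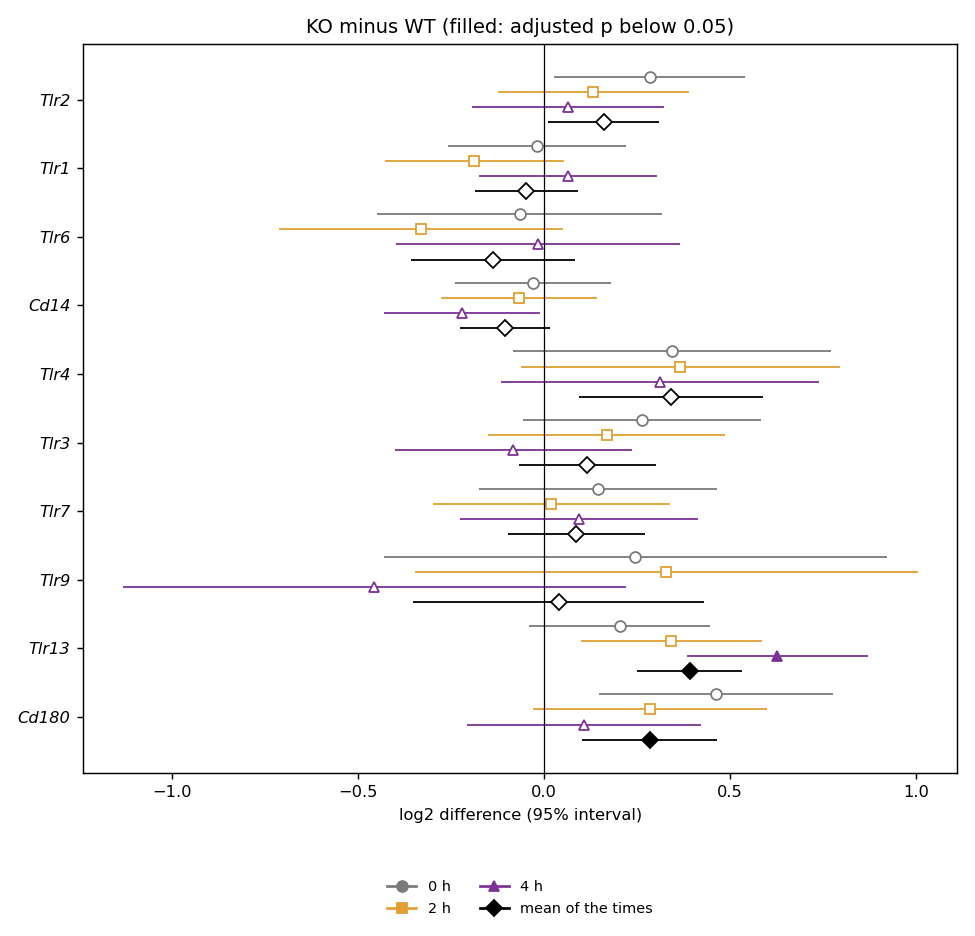
KO minus WT for each receptor gene as a log2 difference with its 95% interval, at 0 h (grey circles), 2 h (yellow squares), 4 h (purple triangles) and averaged over the times (black diamonds), with filled points called at an adjusted p below 0.05. Tlr13 at 4 h and on average, and Cd180 on average, are the filled points.

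Tlr13 was 0.20 ± 0.11 higher in KO at 0 h (adjusted p = 0.46) and 0.34 higher at 2 h (adjusted p = 0.15). At 4 h it was 0.63 ± 0.11 or 1.54-fold higher (adjusted p = 0.0073), and averaged over the times 0.39 ± 0.066 or 1.31-fold (adjusted p = 0.0011). The arrays of the genotypes did not overlap at any time. Leaving out WT 4 h A, WT 4 h B or KO 4 h B ended the call at 4 h (adjusted p up to 0.083), while the averaged call was kept in every such fit. On the deposited scale neither was called. Cd180 was 0.46 ± 0.15 higher at 0 h (adjusted p = 0.12), 0.28 at 2 h (adjusted p = 0.40), 0.11 at 4 h (adjusted p = 0.82) and 0.28 ± 0.085 or 1.22-fold on average (adjusted p = 0.045). Its genotypes did not overlap at any of the 3 times, and without normalization between arrays the averaged call was lost. The averaged call of Cd180 was kept without WT 0 h B, WT 2 h B or KO 2 h B and lost in the other 9 fits that left out 1 array (adjusted p up to 0.12). Of the 10 members 6, 5 and 5 did not overlap between genotypes at 0, 2 and 4 h, beside 43.1%, 45.0% and 44.7% of all genes. Tlr4 was 0.34 ± 0.12 higher on average and was not called (adjusted p = 0.078), but was called at 0.46 without KO 4 h array B (adjusted p = 0.0069).

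Markers of macrophages and monocytes were also higher in KO. Of 11 tested, 9 were higher in KO on average and none lower, where 10.5% of all genes were called (6.21% higher). Their median difference was 0.49 beside 0.031 over all genes. Lyz2, the lysozyme of myeloid cells, was 0.95 ± 0.047 higher (adjusted p = 5.9e-09), C1qa, a complement subunit, 0.75 ± 0.067 (adjusted p = 2.5e-06), and Adgre1, the F4/80 antigen, 0.69 ± 0.079 (adjusted p = 3.1e-05). Their summed signal, 12 genes in all, ran from 2937 to 3595 in WT and from 4565 to 5840 in KO. The marker sums separated the genotypes at every time, and so did Tlr13 and Cd180. The sizes at each time follow, and whether they change alike over time was not tested. The median marker difference was 0.54, 0.47 and 0.55 at 0, 2 and 4 h. At those times Tlr13 differed by 0.20, 0.34 and 0.63, and Cd180 by 0.46, 0.28 and 0.11. CD180 is also found on B cells, whose markers summed to 1509 to 1931 in WT and 2096 to 2582 in KO. Of 10 tested, 3 were higher in KO on average and none lower, with Cd79b, a B cell receptor subunit, at 0.47 ± 0.076 (adjusted p = 6.6e-04). Among plasmacytoid dendritic cell markers 1 of 7 was higher and 2 lower, and among dendritic cell markers 6 of 15 were higher and 2 lower. T cell markers gave 1 of 10 higher and 2 lower, NK cell markers 1 of 6 and 1, neutrophil markers none of 5, and stromal markers 3 of 7 higher. The same shares of all genes, 10.5% called and 6.21% higher, stand beside the counts of every list. The stromal sums also separated the genotypes, at 559 to 736 in WT and 841 to 965 in KO. The part of these cells in the Tlr13 and Cd180 differences was not tested, and in bulk RNA more cells of a type and more RNA per cell cannot be told apart.

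**Figure D4:**
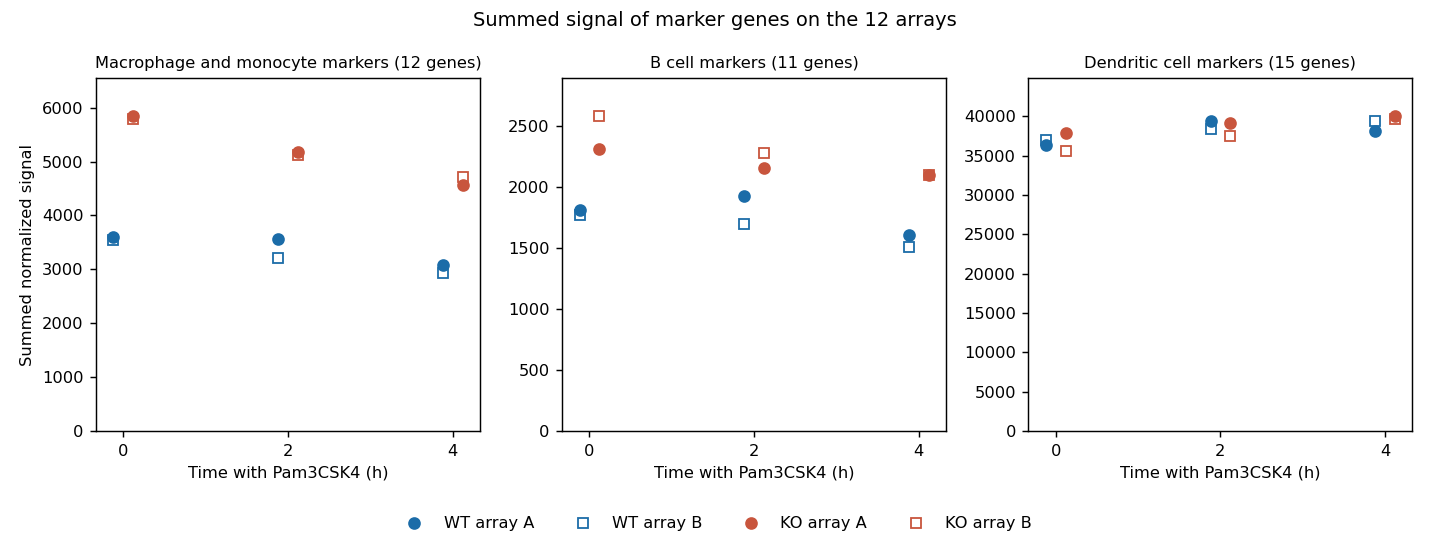
Summed normalized signal of macrophage and monocyte markers (12 genes), B cell markers (11 genes) and dendritic cell markers (15 genes) on each array, against time with Pam3CSK4 in hours, with WT in blue, KO in red, array A as filled circles and array B as open squares. The KO arrays lie above all WT arrays in the macrophage and B cell panels and overlap with them in the dendritic cell panel.

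Whether the receptor responses themselves depended on genotype was tested as the KO response minus the WT response. None of the 10 members was called by limma at 2 h, where 0.0313% of all genes were, or at 4 h, where 0.0469% were. An unadjusted p under 0.05 was reached by none at 2 h and by 1 at 4 h. That member was Tlr13, whose 4 h fall was smaller in KO by 0.42 ± 0.16 (95% interval 0.079 to 0.77, adjusted p = 0.74). For Cd14 the 2 h responses differed by −0.038 (−0.33 to 0.26) and the 4 h responses by −0.19 (−0.49 to 0.11). Tlr2 gave −0.15 (−0.52 to 0.21) at 2 h and −0.22 (−0.58 to 0.14) at 4 h, and Tlr1 gave −0.17 (−0.51 to 0.17) and 0.083 (−0.26 to 0.42). The intervals of Cd14, Tlr2 and Tlr1 reach as far as −0.58, so equal responses were not shown. Tlr6 was the member called at 2 h in WT only, and its responses differed by −0.27 (−0.81 to 0.27), so a genotype difference was not shown for it either. For Cd180 the responses differed by −0.18 (−0.62 to 0.27) at 2 h and −0.35 (−0.80 to 0.090) at 4 h. For Tlr4 they differed by 0.022 (−0.58 to 0.63) and −0.032 (−0.64 to 0.57). Tlr3 gave −0.095 and −0.35, Tlr7 −0.13 and −0.051, and Tlr9 0.083 and −0.70, the last with the widest interval of all members (−1.66 to 0.26).

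Partner and pathway genes were taken from 7 lists of 52 genes, of which 45 were tested. In WT at 2 h 11 were higher and 8 lower, where 8.43% and 11.5% of all genes were, and in KO 8 and 8, where 7.85% and 11.7% were. At 4 h the counts were 9 and 8 in WT, against 8.31% and 9.90% of all genes, and 9 and 10 in KO, against 7.24% and 10.9%. Between genotypes on average 5 were higher in KO and 1 lower, 13.3% of those tested and near the 10.5% of all genes, and no response difference was called in either direction by limma, with 3 (2 h) and 6 (4 h) under an unadjusted p of 0.05.

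Of the 6 co-receptors and extracellular partners, 2 were higher and 3 lower in WT at 4 h, where 8.31% and 9.90% of all genes were, and 1 and 3 in KO, where 7.24% and 10.9% were. Ly96, the MD-2 partner of TLR4, read 8.79 and 9.04 in WT before stimulation, 8.93 and 8.94 after 2 h, and 9.38 and 9.45 after 4 h. It was thus higher at 4 h alone, by 0.50 ± 0.10 in WT (adjusted p = 0.0025) and 0.48 in KO (adjusted p = 0.0034), whereas the brighter Tlr4 probe set was not called. The KO call was lost without KO 0 h B or KO 4 h B (adjusted p up to 0.058). Ly86, the MD-1 partner of CD180, was 0.26 ± 0.046 higher in KO on average (adjusted p = 0.0017), the same direction as Cd180 and the macrophage markers, but 0.031 on the deposited scale. Cd36, a scavenger receptor that assists TLR2 with diacylated ligands, fell by 0.75 in KO at 2 h (adjusted p = 0.0020) and by 0.95 at 4 h (adjusted p = 2.4e-04). In WT its change was −0.30 at 2 h and was not called (adjusted p = 0.19), and it fell by 0.51 at 4 h (adjusted p = 0.024). Leaving out array A of WT at 0 h or of WT at 4 h ended this call (with adjusted p reaching 0.24). The responses of Cd36 differed by −0.45 at 2 h and −0.44 at 4 h, and neither was called (adjusted p = 0.84 and 0.82). Clec7a, the β-glucan receptor dectin-1 that works alongside TLR2, fell by 0.50 in WT (adjusted p = 9.6e-05) and 0.88 in KO (adjusted p = 3.0e-07) at 4 h. Its mean at 0 h was 11.13 in KO and 10.83 in WT, and at 4 h 10.25 and 10.33. The Clec7a responses differed by −0.38 at 4 h, which was not called either (adjusted p = 0.47).

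**Figure D5:**
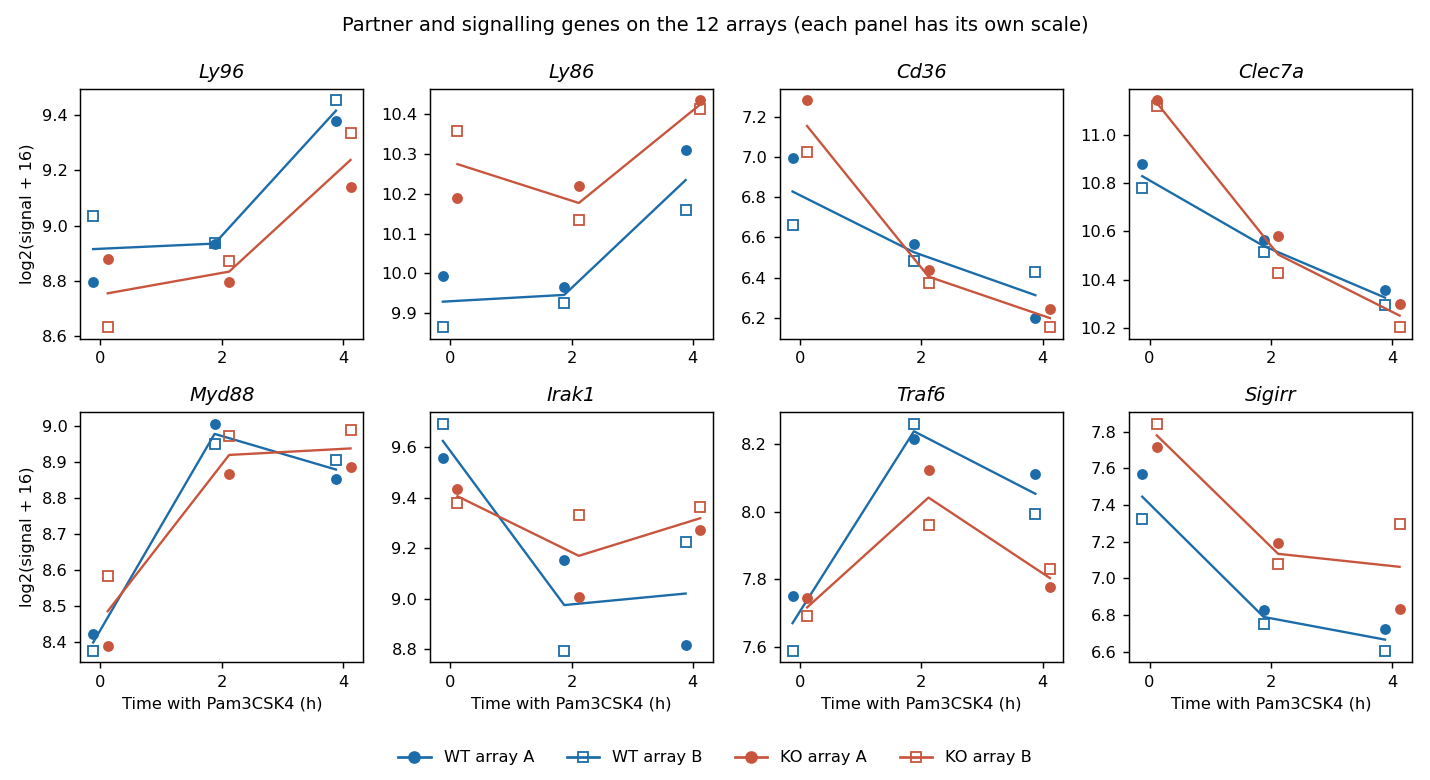
Values of 8 partner and signalling genes on the 12 arrays as log2(signal + 16), against time with Pam3CSK4 in hours, with the colours and symbols of the receptor panels and each panel on its own scale. Ly96 is highest at 4 h, Cd36 and Clec7a are lower at 4 h than at 0 h, and every stimulated Myd88 value lies above those at 0 h.

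Chaperones and trafficking factors bring the endosomal receptors to their compartment. In WT at 4 h none of 6 was higher and 2 were lower, where 9.90% of all genes were lower. In KO 1 was higher and 2 lower, against 7.24% and 10.9% of all genes. Unc93b1, the transporter of TLR3, TLR7, TLR9 and TLR13, was not called in any comparison with 0 h, with −0.32 in WT (adjusted p = 0.13) and −0.39 in KO (adjusted p = 0.055) at 4 h. The chaperones Hsp90b1 (gp96) and Cnpy3 were not called either, at −0.30 (adjusted p = 0.091) and −0.34 (adjusted p = 0.071) in WT at 2 h. Ap3b1, a subunit of the AP-3 sorting adaptor, fell by 0.77 ± 0.091 in WT (adjusted p = 1.5e-05) and by 0.68 in KO (adjusted p = 5.5e-05) at 4 h. It was also lower in KO on average, at −0.45 ± 0.052 (adjusted p = 3.9e-05), opposite in sign to Tlr13. Among the 5 endosomal proteases that cut these receptors none was higher after Pam3CSK4, and 1 in WT and 4 in KO were lower at 4 h, against 9.90% and 10.9% of all genes. No response difference between the genotypes was called by limma for these proteases, with 1 at 2 h (Ctsk) and 1 at 4 h (Ctsl) under an unadjusted p of 0.05. Ctsb, cathepsin B, was 0.33 ± 0.040 higher in KO on average (adjusted p = 4.6e-05), as Tlr13 was, and 0.12 on the deposited scale.

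Myd88, the adaptor that nearly all these receptors share, was the 1 of 4 tested adaptors that was called. At 2 h 19.9% of all genes were called in WT and 19.6% in KO, so 1 of 4 is near that share. Myd88 read 8.42 and 8.38 in WT before stimulation, 9.01 and 8.95 after 2 h, and 8.85 and 8.90 after 4 h. The stimulated arrays lay above the others. The rise at 2 h was 0.58 ± 0.088 in WT (adjusted p = 1.8e-04) and 0.43 in KO (adjusted p = 0.0024), but −0.046 in KO on the deposited scale. Of 12 kinases and ligases, 3 were higher and 2 lower in WT at 2 h, where 8.43% and 11.5% of all genes were, and 1 and 1 in KO, where 7.85% and 11.7% were. Traf6, the ubiquitin ligase downstream of MyD88, rose by 0.57 ± 0.10 in WT at 2 h (adjusted p = 6.5e-04). In KO it rose by 0.32 (adjusted p = 0.032), a call lost without KO 0 h A, KO 0 h B or KO 2 h A (adjusted p up to 0.21), and was −0.15 on the deposited scale. Irak1, the receptor-proximal kinase, fell by 0.65 ± 0.14 in WT (adjusted p = 0.0030), a call that ended without WT 2 h array B (adjusted p = 0.060), and its KO change was −0.24 (adjusted p = 0.27). The 2 h responses differed by −0.24 for Traf6 and 0.41 for Irak1, and neither was called (adjusted p = 0.87 and 0.84).

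Of the 10 inhibitors of receptor signalling, 6 were higher and 2 lower in each genotype at 2 h, where 8.43% and 11.5% of all genes were in WT and 7.85% and 11.7% in KO. Their median change was 0.35 in WT and 0.31 in KO, beside −0.049 and −0.058 over all genes. Tnfaip3, which encodes the ubiquitin-editing enzyme A20, rose by 2.01 ± 0.088 in WT (adjusted p = 1.4e-10) and 1.73 in KO (adjusted p = 9.9e-10). Tnip1, a binding partner of A20, rose by 1.17 ± 0.064 in WT (adjusted p = 1.8e-09) and 1.03 in KO (adjusted p = 1.0e-08). Nfkbid, a nuclear inhibitor-of-NF-kB protein, rose 2.82-fold in WT (adjusted p = 1.0e-05) and 2.53-fold in KO (adjusted p = 3.5e-05). Cyld, a deubiquitinase, fell by 0.41 in WT (adjusted p = 0.0023) and 0.43 in KO (adjusted p = 0.0018). Sigirr, a receptor-like inhibitor of the same domain family, fell at both times in both genotypes, by 0.78 ± 0.15 in WT at 4 h (adjusted p = 0.0012) and 0.72 in KO (adjusted p = 0.0023). Sigirr was also 0.36 ± 0.084 higher in KO on average (adjusted p = 0.011), so that like Tlr13 it fell with Pam3CSK4 and stood higher in KO.

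The receptor genes outside the 10 members were dim. Tlr5, the flagellin receptor, ranged from 4.59 to 5.45, Tlr12 from 4.19 to 5.16 and Tlr8 from 4.11 to 4.85, below the filter on average. Tlr12 was higher at 4 h than at 2 h in WT by 0.79 ± 0.23 (adjusted p = 0.042), a call kept in 4 of the 12 fits that left out 1 array and lost without any WT array or either KO 0 h array (adjusted p up to 0.23). Tlr11 had no single-symbol probe set and could not be tested.

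Over the 12 arrays Tlr2 and Cd14 had Pearson r = 0.95 (Spearman rho 0.92), Tlr1 and Cd14 0.91 (0.78), Tlr1 and Tlr2 0.87 (0.67), and Tlr6 and Tlr1 0.81 (0.74). Tlr13 and Cd14 ran opposite, at −0.82 (−0.78). These values describe arrays that fall into time groups and share their scaling, and they carry no test. Outside the members, the 5 tested genes most like Tlr2 over the 12 arrays were Hacd2, Plk2, Hsd17b11, Rapgef2 and Siah2, with r of 0.98 each and rho from 0.91 (Rapgef2) to 0.97 (Hsd17b11). Those most like Cd14 were Cxcl2, a neutrophil-attracting chemokine, at r = 0.99 and rho 0.94, and Glt8d1, Rasa2, Nudt9 and Mki67, with r of 0.99 each and rho from 0.90 (Nudt9) to 0.94 (Rasa2). Cxcl2 ranged from 9.62 to 12.27 over the arrays, on its own probe set.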

How the data were processed

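RNA of cultured lymph node dendritic cells had been hybridised to Affymetrix mouse 3' arrays. The deposited values are linear intensity signals per probe set, and the submitters' processing notes name MAS5. Its version and scaling target are not given here. Arrays limit precision through their number, 2 a group.

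Probe sets were named from the platform annotation, and all 10 members matched the RefSeq table of GRCm38.p6. Of 45101 probe sets, those with several symbols (932) or none (9211) were not used. The intensities were quantile-normalized and tested as log2(value + 16). The brightest single-symbol probe set stood for a gene, and genes were tested (12792) if their mean log2 value was at or above the 40th percentile over probe sets, a signal of 10.6. limma 3.58.1, run in R 4.3.3, fitted one model of 6 group means to all 12 arrays (trended eBayes, 6 residual and 9.13 prior degrees of freedom), two-sided, with Benjamini-Hochberg adjustment over all tested genes per comparison and calls at an adjusted p below 0.05. Errors after ± are standard errors. The procedure was tested on simulated data.

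Every member was tested in every comparison. Partner genes were named from the up to 6 called genes per list with the smallest p; Unc93b1, Hsp90b1, Cnpy3 and the dim receptors were added as members of their lists. Members and lists were chosen with earlier results of these data known. Results were recomputed with a pseudocount of 1 or 64, without a filter or with one at the 60th percentile, unscaled, scaled by trimmed means, with other probe set rules, eBayes without trend, only the groups compared, a replicate block and each array left out in turn. Same-letter arrays did not deviate together (r from −0.042 to 0.10 over 15 pairs), so the letters were not taken as pairs.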

Additional observations from a re-analysis of the deposited data

How the results depend on the processing

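Of the 23 calls of single members, 7 were kept under all other settings and all 12 fits without 1 array, and 14 were kept in all of the latter. On the deposited scale the counts of members called were 3 in WT at 2 h, 2 in WT at 4 h and 0 in KO at 4 h against 0 h, 0 between 2 and 4 h in either genotype, and 0 for KO minus WT at 4 h and on average. Of the 12787 genes tested there, 2291, 832 and 853 were called in those comparisons against 0 h, in that order. Between 2 and 4 h 230 (WT) and 303 (KO) were called, and for KO minus WT 43 at 4 h and 537 on average. On that scale the median of all genes moved to −0.35 (WT) and −0.41 (KO) at 2 h and −0.16 and −0.20 at 4 h, and 11.7%, 5.71%, 30.2% and 22.2% of all calls were higher, against 42.4%, 40.1%, 45.6% and 40% with quantile normalization. KO minus WT on average gave 9.12% against 59.2%. For KO at 4 h against 2 h the count was 1 with a pseudocount of 1, no filter, the mean of all probe sets, trimmed-mean scaling or eBayes without trend. The last gave 0 for WT at 4 h against 2 h, where the groups alone gave 2. The averaged KO minus WT count was 1 without a filter or without trend. Leaving out 1 array gave 2 to 4 members for KO at 4 h against 0 h, 1 to 3 for KO at 4 h against 2 h, 0 to 1 for WT at 4 h against 2 h, 0 to 1 for KO minus WT at 4 h and 1 to 2 on average. Tlr1 in KO at 2 h became −0.030 on the deposited scale. Tlr4 in KO ran from −0.73 to 0.0084 at 4 h against 0 h, and from −0.68 to 0.064 against 2 h, when 1 array was left out, and was 0.031 against 2 h with the mean of all probe sets. Both turned positive without KO 4 h array B. The replicate block gave 4 members in WT at 2 h, with Tlr6 no longer called (adjusted p = 0.054), and changed no other call. Tlr9, Tlr8 and Tlr12 lie near the filter, where signal over background limits what can be seen.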
